A study of Arabidopsis thaliana with 18 samples.

Results

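Seedlings of the Arabidopsis thaliana mutant tfl1-1 were compared with wild type, both grown at 23 °C. The comparison takes the 3 arrays of tfl1-1 at that temperature and the 3 arrays of wild type at the same temperature, 6 of the 18 arrays in the study, and was described across all genes. Columbia wild type (WT), elf3-7 and tfl1-1 were each raised at 16 °C and at 23 °C in the study, with 3 biological replicates lettered A, B and C in each of the 6 groups. All seedlings were 10 days old when taken and had grown on agar plates in continuous white light of 80 µmol per second and square metre. Both groups compared here share that age, light and temperature and differ in the genotype label. The labels do not name the background accession of tfl1-1, and a single mutant line was used. The tfl1-1 mutation and any other difference of that line therefore cannot be told apart. RNA came from whole seedlings, so fewer cells of a type and less RNA per cell cannot be told apart.

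TERMINAL FLOWER 1 (TFL1) represses flowering in the shoot meristem and keeps that meristem growing as a shoot instead of ending in a flower. Its protein belongs to the family of phosphatidylethanolamine-binding proteins, as does FLOWERING LOCUS T (FT), which promotes flowering. TFL1 and FT act with the bZIP factor FD on the same kinds of target genes, in opposite senses. The study's title places TFL1 together with ELF3, a component of the circadian clock, in the control of flowering time by ambient temperature.

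Values are log2 signals per probe set, so that 1 unit is a 2-fold change, and 22746 probe sets were tested. Of these, 13513 named 1 gene, 1580 of them by a symbol and 11933 by a locus code only, while 8730 (38.4%) carried no gene name here. No probe set was named TFL1, so the genotype was not checked against the mutated gene itself. Green tissue was evident from RCA, the activase of the carbon-fixing enzyme Rubisco, at 13.46 to 13.74 on the 6 arrays, and from the light-harvesting gene LHCB4.2 at 12.10 to 12.83. Of the root markers, EXPA7 and EXPA18, expansins of root hairs, lay between 3.39 and 3.86, close to the Bacillus spike controls of A and B (mean 3.21). PYK10, a beta-glucosidase of root and hypocotyl, was bright at 11.18 to 12.39.

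Replicate C stood apart in tfl1-1. Over all probe sets tfl1-1 C correlated at 0.954 with tfl1-1 A and 0.964 with B, against 0.989 between A and B, and at 0.987 with WT C. Among the WT arrays it was A that lay farthest. WT A correlated at 0.984 with WT B and 0.973 with WT C, against 0.986 between WT B and C, and the fit of A and B keeps WT A. In 1655 probe sets tfl1-1 C lay more than 1 log2 unit outside the range of tfl1-1 A and B, and in 269 WT C lay that far outside the range of WT A and B. The Bacillus controls averaged 5.69 in tfl1-1 C and 4.81 in WT C, against 3.20 to 3.27 on the other 4 arrays. For actin and GAPDH, the signal of the 3′ control exceeded that of the 5′ control by 1.81 in tfl1-1 C and 1.29 in WT C, against 0.22 to 0.51 in A and B. The 25S ribosomal control was 8.11 in tfl1-1 C, against 5.39 and 5.61 in tfl1-1 A and B and 5.92 to 6.72 in WT. On the 16 °C arrays of these genotypes it ranged from 5.69 to 8.99. The part of these controls in the results was not tested. The counts and many of the genes are therefore given with and without replicate C. Other genes are given from a single fit only.

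With all arrays, 8 of 22746 probe sets differed between tfl1-1 and WT at 23 °C, 5 higher (0.022%) and 3 lower (0.0132%) in tfl1-1 (limma, adjusted p under 0.05). They make up 0.0352% of those tested. The 3 and 3 arrays did not overlap in 2313 probe sets (10.2%), these 8 among them. At an unadjusted p under 0.05 the number was 1924 (8.46%). The largest difference was a fall of SAT32, and AT1G43590 and AT4G28080 were the other genes that fell. AT1G73480 rose, as did 4 probe sets without a gene name. With the replicate letter as a block, the number was 29 (0.127%), 13 higher (0.0572%) and 16 lower (0.0703%), including all 8. It came to 193 in replicates A and B alone (0.849%), 113 higher (0.497%) and 80 lower (0.352%), including 7 of the 8. The number depended on single arrays: 745 without tfl1-1 C (3.28%, including all 8), none without tfl1-1 B, 14 without WT A, 3 without WT B and 4 without WT C. None passed when only the 6 arrays entered the fit, where 1001 had an unadjusted p under 0.05.

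SAT32 (AT1G27760, SALT-TOLERANCE 32 in the gene table) read 5.22, 4.68 and 5.92 in tfl1-1 A, B and C, against 7.70, 8.12 and 7.39 in WT. Every tfl1-1 array lay below every WT array by more than 1 log2 unit, C included. The difference was -2.46 ± 0.29 (SE with the spread pooled over all groups, as for each SE below, n = 3 per group). This was a 5.52-fold fall (limma adjusted p = 0.00979). It was -2.96 ± 0.23 in A and B (limma adjusted p = 0.00548) and -1.46 in C. At 16 °C, on other arrays of both genotypes, SAT32 read 5.38, 4.98 and 5.74 in tfl1-1 and 7.38, 7.37 and 7.59 in WT. That difference, -2.08, did not pass over all probe sets (limma adjusted p = 0.0759), and the arrays did not overlap there either. Over the whole study the 6 tfl1-1 arrays, at most 5.92, lay below the 12 arrays of WT and elf3-7, at least 7.25. The call at 23 °C was lost without tfl1-1 B (adjusted p = 0.0551, difference -2.17).

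AT1G43590 read 4.42, 4.73 and 4.28 in tfl1-1 and 5.49, 5.92 and 6.25 in WT, with no overlap. It fell by 1.41 ± 0.22 on the log2 scale (SE, n = 3 per group, 2.66-fold, limma adjusted p = 0.0279), by 1.13 in A and B and by 1.97 in C. Elf3-7 at 23 °C read lower still, at 3.53, 3.18 and 3.93. Measured against the same 3 WT arrays, its difference was -2.34 (limma adjusted p = 0.000434), in a comparison that called 7 probe sets (0.0308%). At 16 °C the tfl1-1 difference was -1.0 (adjusted p = 0.295), again without overlap of the arrays.

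AT4G28080 had the narrowest spread of the called genes, at 10.25, 10.26 and 10.23 in tfl1-1 and 10.89, 10.89 and 10.78 in WT. It fell by 0.61 ± 0.09 (SE, n = 3 per group, 1.53-fold, limma adjusted p = 0.0210), with -0.64 in A and B and -0.55 in C. Unlike SAT32, its arrays overlapped at 16 °C, where the difference was -0.14. AT1G73480 read 8.10, 8.35 and 7.58 in tfl1-1 and 6.93, 6.44 and 6.43 in WT. All 3 tfl1-1 arrays were higher, and the gene rose by 1.41 ± 0.20 (SE, n = 3 per group, 2.66-fold, limma adjusted p = 0.0210), by 1.54 in A and B and by 1.15 in C. At 16 °C the difference was 0.77 (adjusted p = 0.457), with tfl1-1 at 7.20, 6.82 and 7.01 above WT at 6.0, 6.25 and 6.48.

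The 4 probe sets without a gene name were likewise higher on every tfl1-1 array. 266720_s_at read 6.17, 6.19 and 6.48 in tfl1-1 and 4.78, 4.70 and 4.63 in WT, a rise of 1.58 (2.99-fold, limma adjusted p = 0.0210). 249383_at rose by 1.00 (limma adjusted p = 0.0210), with 1.21 in A and B and 0.58 in C. 246340_s_at rose by 0.96 (limma adjusted p = 0.0210) and 266322_at by 0.83 (limma adjusted p = 0.0235). In WT, 246340_s_at lay at 3.04 to 3.42, at the level of the Bacillus controls, which leaves its fold change imprecise. It was also the member of the 8 that missed the threshold in A and B (adjusted p = 0.0507). Of the 8, all but SAT32 lost their call without at least 1 of the WT arrays as well as without tfl1-1 B. AT1G43590, AT1G73480, AT4G28080 and 266322_at lost it without tfl1-1 A too. AT4G28080 lost it without any one of the WT arrays. It also lost it in limma with dim probe sets left out (adjusted p = 0.061) and with an intensity trend (adjusted p = 0.068). With that trend 266322_at lost its call as well (adjusted p = 0.066).

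**Figure D1:**
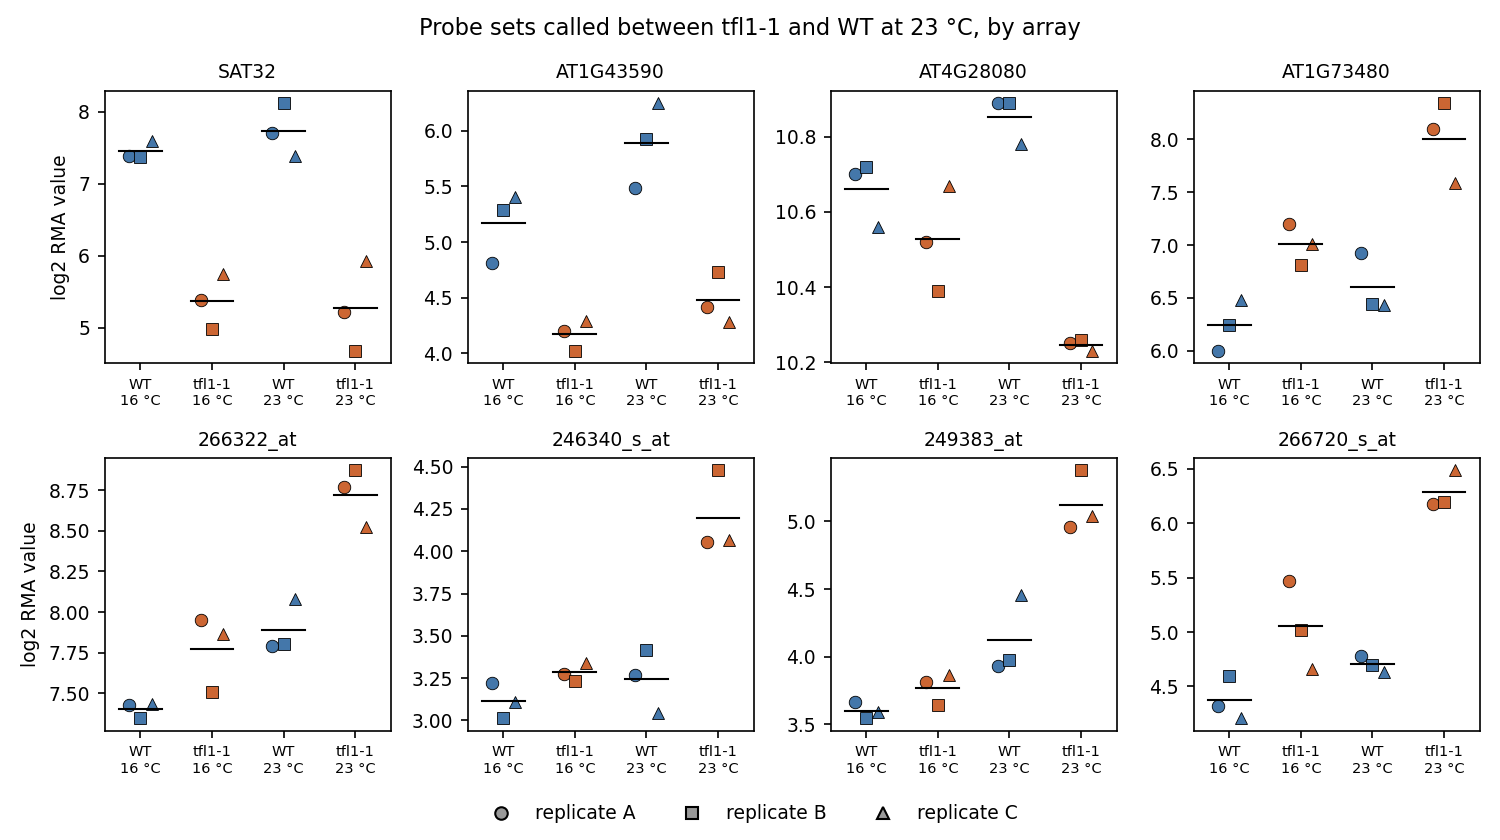
Log2 signal (vertical axis, a separate scale in each panel) of the 8 probe sets called between tfl1-1 and WT at 23 °C, by group; points are arrays, symbols the replicate letter and lines the mean of 3. At 23 °C no tfl1-1 array overlaps a WT array in any panel, and in SAT32 tfl1-1 is as low at 16 °C, at 4.98 to 5.74.

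Across all probe sets, the difference between tfl1-1 and WT in A and B did not track that in C. The correlation of these differences over probe sets was 0.0084, against 0.506 between the A difference and the B difference, and the probe sets share their arrays. The spread of the differences over probe sets was of like size, with an SD of 0.35 in A and B and 0.37 in C. Of the 193 probe sets called in A and B, 106 (54.9%) had the same sign in C, against 52.3% of all probe sets. The median difference of the 113 that rose was 1.17 in A and B and 0.07 in C, and that of the 80 that fell was -1.05 and -0.03. These C values are from arrays that the fit of A and B did not use, and are differences within a single letter.

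**Figure D2:**
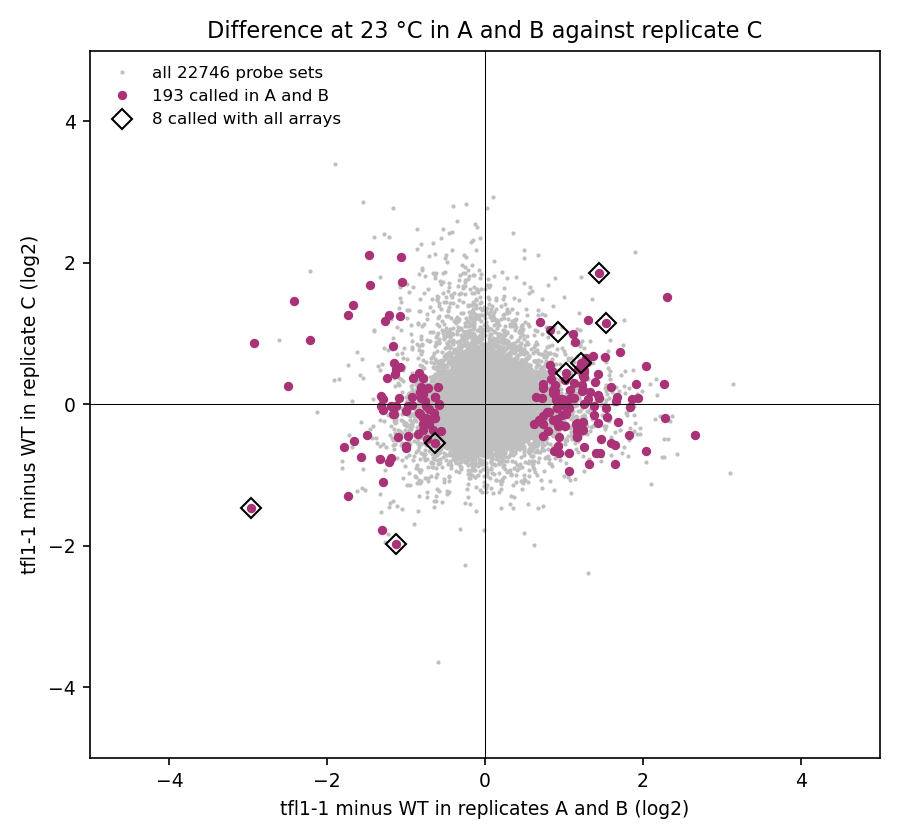
Difference tfl1-1 minus WT at 23 °C in log2 units, the mean of replicates A and B (horizontal) against replicate C (vertical), for 22746 probe sets. The 193 called in A and B spread above and below 0 in C, and the 8 called with all arrays share their sign in both.

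Of the 193, 90 named 1 gene, 17 by a symbol and 73 by a locus code only (48 higher and 25 lower). UPB1, a basic helix-loop-helix factor that sets the balance of cell division and differentiation in roots, had the largest rise among the genes. It read 6.47 and 6.83 in tfl1-1 A and B against 4.95 and 3.75 in WT, and 4.64 against 3.12 in C. Thus tfl1-1 was higher within each letter, although tfl1-1 C lay below WT A. The rise in A and B was 2.3 ± 0.33 (SE, n = 2 per group, 4.93-fold, limma adjusted p = 0.0240). With all arrays it was 2.04 ± 0.47 and did not pass (adjusted p = 0.218). The WT mean of UPB1 lay within 1 unit of the Bacillus level, which leaves its fold change imprecise.

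THI2.1, a thionin, which is an antimicrobial peptide induced by jasmonate, read 5.19 and 5.25 in tfl1-1 A and B and 3.68 and 3.45 in WT. In C both genotypes lay near the Bacillus level of the other arrays, at 3.33 and 3.28. It rose by 1.66 ± 0.15 in A and B (SE, n = 2 per group, limma adjusted p = 0.00777), against 0.05 in C and -0.13 at 16 °C. Locus-code genes made up the rest of the 8 named rises. AT5G57340 kept its direction in C, with 1.71 in A and B and 0.74 in C, and AT2G21820 did so at 1.91 and 0.29. The other 4 were below 0 in C: AT2G19970 at 2.04 and -0.66, AT5G62280 at 1.82 and -0.43, AT1G75490 at 1.65 and -0.58, and AT5G60680 at 1.59 and -0.55.

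Among the 8 named falls in A and B, SAT32 was followed by AT5G01870, at 5.39 and 5.77 in tfl1-1 A and B against 7.36 and 8.79 in WT. In C it read 8.61 in tfl1-1 and 8.36 in WT, so the difference of -2.50 (limma adjusted p = 0.0246) became 0.25. AT3G05730, one of the brighter genes, fell by 1.78 in A and B (limma adjusted p = 0.0142) with -0.60 in C, and AT5G35740 fell by 1.33 with -0.77 in C. AT2G36885 (-1.32) and AT1G06830 (-1.29) had -0.03 and 0.07 in C. Clear reversals were seen for AT5G66390, at -1.46 in A and B and 1.68 in C, and for UGT72E2, a glycosyltransferase of the monolignols that build lignin, at -1.21 and 1.27. UGT72E2 read 4.98 and 5.0 in tfl1-1 A and B but 7.64 in C, against 5.88, 6.52 and 6.37 in WT.

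**Figure D3:**
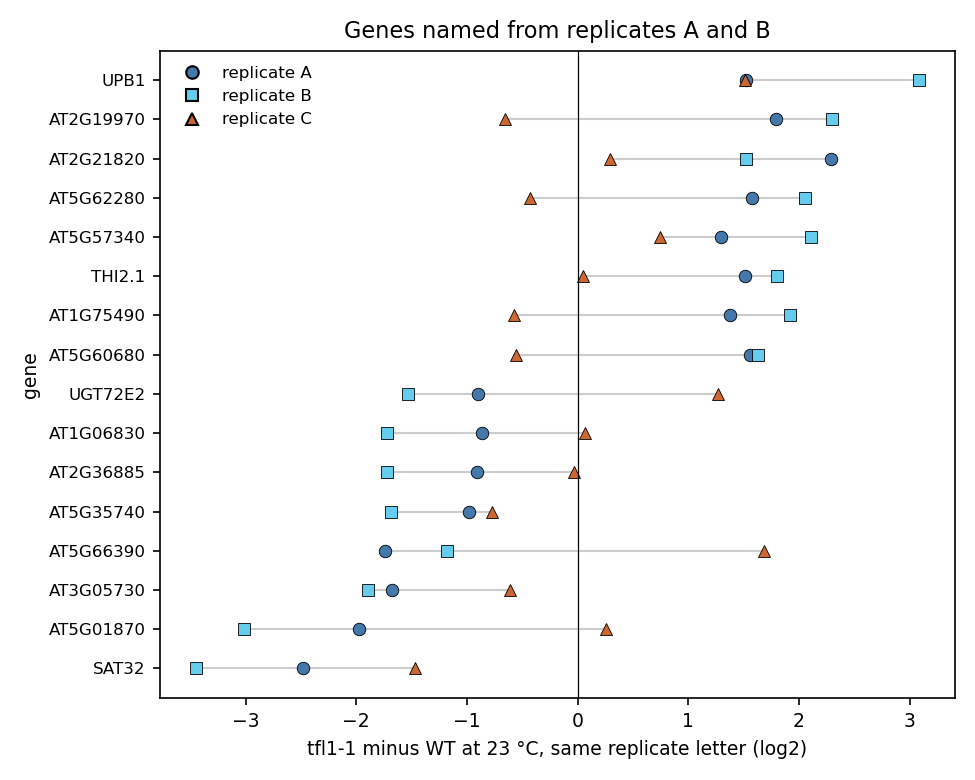
Difference tfl1-1 minus WT at 23 °C (log2, horizontal) within each replicate letter for the 16 genes named from replicates A and B; grey lines join the lowest and highest of the 3. In C the difference was opposite in sign to A and B for AT2G19970, AT5G62280, AT1G75490, AT5G60680, UGT72E2, AT1G06830, AT5G66390 and AT5G01870.

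Fitting the replicate letter as a block gave a different view. It keeps C and removes only the shift that a letter shares over all 6 groups. What sets tfl1-1 C apart from the other C arrays stays in. The 29 probe sets called with the replicate block had the same sign in A, B and C, which the block favours by selection, and 14 of them named 1 gene. Besides the 4 genes called without the block, these were locus-code genes. AT1G56190 read 9.31, 9.20 and 10.01 in tfl1-1 and 10.29, 10.43 and 10.47 in WT, a fall of 0.89 (limma with the block, adjusted p = 0.0454). AT1G23205 fell by 1.34, AT5G35740 by 1.15, AT1G60590 by 1.00, AT2G43550 by 0.93, AT4G05090 by 0.51 and AT5G27290 by 0.49. Rises were AT4G23493 (0.90), AT2G45920 (0.86) and AT3G27610 (0.66), all with a WT mean near the Bacillus level, which leaves their sizes imprecise. AT4G23493 was the steadiest of these, at 5.04, 4.86 and 5.19 in tfl1-1 and 4.11, 4.13 and 4.14 in WT. It had an adjusted p of 0.0596 in limma without the block.

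Leaving out tfl1-1 C alone raised the number of calls to 745, 418 higher (1.84%) and 327 lower (1.44%) in tfl1-1. This fit sets 2 tfl1-1 arrays against 3 WT arrays and keeps WT C, so the letters are not balanced in it. The median difference was 0.96 for the probe sets that rose and -0.85 for those that fell, and 308 differed at least 2-fold (189 higher and 119 lower). In the array left out, 443 of the 745 (59.5%) had the same sign against WT C, which is itself in the fit, beside 55.9% of all probe sets. The median difference in C was 0.02 for the probe sets that rose and -0.14 for those that fell. Of the 745, 352 named 1 gene, 283 by a locus code only (163 higher and 120 lower), and 371 had no gene name. Of the genes with a symbol, 68 passed (43 higher and 25 lower), 40 with the same sign in C and 63 with the same sign at 16 °C.

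Among the 68 genes with a symbol, those described were picked after their values were seen and are grouped by known function, with no test of any group. In the fit without tfl1-1 C, MCCA and MCCB, the subunits of the mitochondrial methylcrotonyl-CoA carboxylase that breaks down leucine, rose by 1.98 (limma adjusted p = 0.0473) and 1.21 (0.0456). AKINBETA1, a regulatory subunit of the SnRK1 kinase that responds to low energy, rose by 1.71 (limma adjusted p = 0.0448), and DELTA-OAT, ornithine aminotransferase, by 0.82. For MCCA the arrays read 10.42 and 10.1 in tfl1-1 A and B and 7.38 in C, against 9.65, 7.91 and 7.29 in WT. WT A thus lay near tfl1-1 A and B, and tfl1-1 C lay with WT C. None of these 4 passed in A and B alone (adjusted p from 0.143 to 0.199), and their C differences lay between -0.29 and 0.23. None of the 4 measured genes of the carbon metabolism list, DPE1 and ICL among them, passed with all arrays, in A and B or without tfl1-1 C (median -0.21 with all arrays). Of all probe sets, 0.0352%, 0.849% and 3.28% were called in these fits, so a lack of calls among 4 genes decides nothing.

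The 9 ATG8 genes encode ubiquitin-like proteins that are coupled to the membrane of the forming autophagosome, the vesicle of autophagy. All 9 were measured, and none was called with all arrays, where all 9 differences were above 0 (median 0.63, against -0.03 over all probe sets). Without tfl1-1 C, 5 of the 9 rose, namely ATG8C, ATG8D, ATG8E, ATG8F and APG8H (AT3G15580), where 1.84% of all probe sets rose. ATG8C read 8.71 and 8.94 in tfl1-1 A and B against 8.05 and 7.56 in WT, and it alone passed in A and B (1.02, limma adjusted p = 0.0319). In C it read 7.68 in tfl1-1 and 7.82 in WT, and the arrays of the groups overlapped. ATG8E had the largest difference in A and B, 1.65 (adjusted p = 0.0689), and -0.39 in C. The median over the 9 was 0.72 in A and B, -0.02 in C and 0.44 at 16 °C. Within C, ATG8H (AT3G06420) stood at 1.10 and ATG8G at 0.39, while 5 of the others lay below 0.

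**Figure D4:**
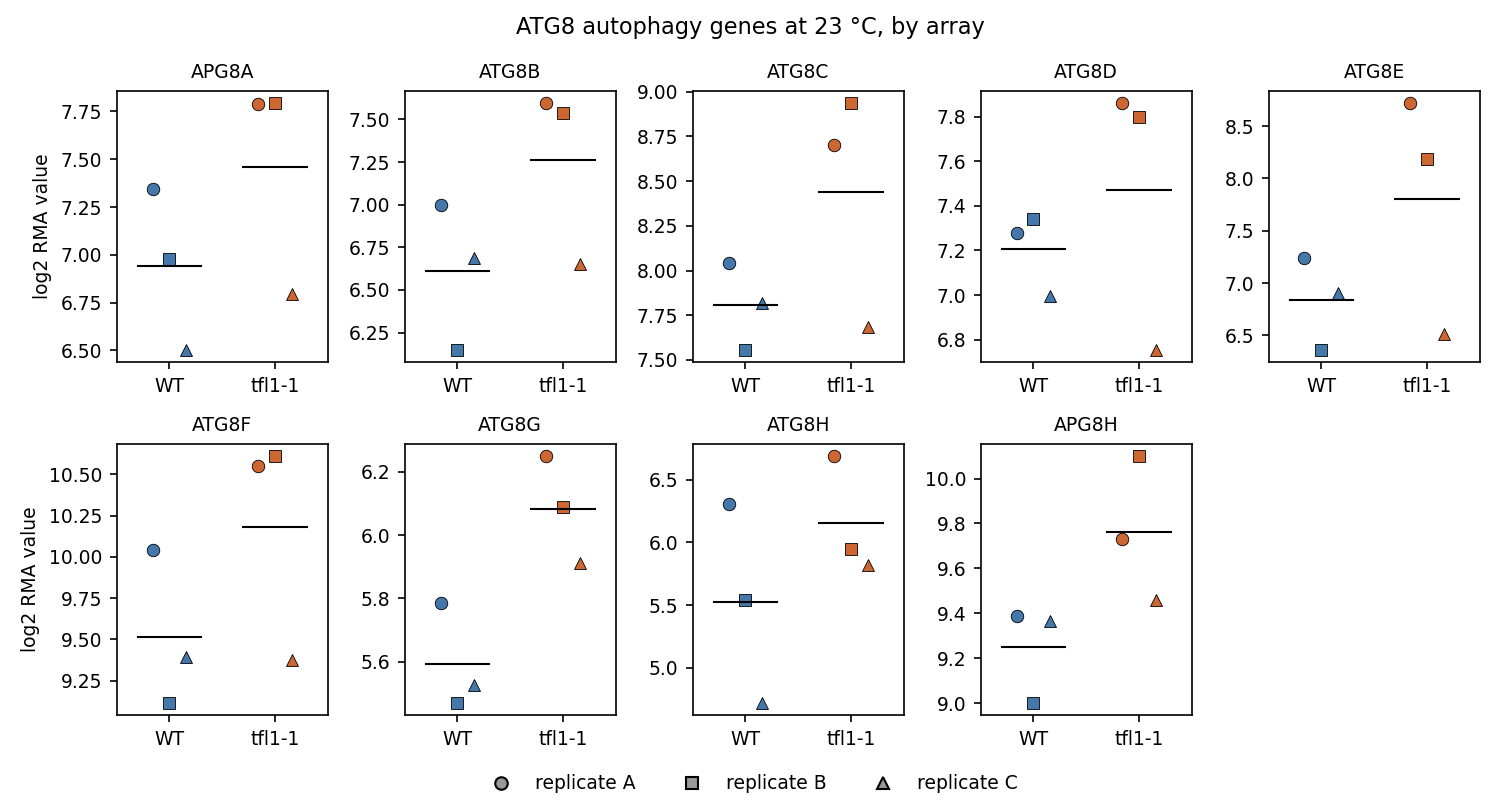
Log2 signal (vertical axis, a separate scale in each panel) of the 9 ATG8 genes at 23 °C in WT and tfl1-1; points are arrays, symbols the replicate letter and lines the mean of 3. The tfl1-1 A and B arrays lie above WT A and B of the same letter in every panel, and tfl1-1 C lies below its own A and B.

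Other genes that rose without tfl1-1 C included GID1C, a gibberellin receptor, IAA29, a repressor of the auxin response, and XERICO, a RING protein that raises abscisic acid. GID1C read 6.35, 6.42 and 5.44 in tfl1-1 and 5.68, 5.43 and 5.08 in WT. It rose by 0.99 (limma adjusted p = 0.00692), and also in A and B (0.83, adjusted p = 0.0246), with 0.36 in C. Its relatives GID1A and GID1B did not pass, at 0.44 and 0.36. IAA29 rose by 1.03 from a WT level near the Bacillus controls, XERICO by 0.65 and the defence-linked factor WRKY22 by 1.35. For WRKY22 a single array, tfl1-1 A at 6.36, stood above 4.03 to 4.68 on the other 5. HIS1-3, a linker histone induced by drought, rose by 2.09 (limma adjusted p = 0.0164), with 0.85 in C and 0.81 at 16 °C. ATL8, a RING-type ubiquitin ligase, rose by 2.41, with 0.14 in C and 0.03 at 16 °C.

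Also higher without tfl1-1 C were ARL, which enlarges organs through cell expansion (1.43), and EXLA1, an expansin-like gene (1.48). PGRL1B, a component of cyclic electron flow in photosynthesis, read 9.14 and 9.23 in tfl1-1 A and B, 8.03 in C and 8.02 to 8.31 in WT. It rose by 1.06 (limma adjusted p = 0.00267) and passed in A and B (adjusted p = 0.0370), and tfl1-1 C lay inside the WT range. Of the 23 cytochrome P450 genes measured, CYP71B23, CYP71B24 and CYP71B26 rose without tfl1-1 C and none fell, where 1.84% of all probe sets rose and 1.44% fell. CYP71B26 was higher on all 3 tfl1-1 arrays, at 8.67, 8.92 and 9.23 against 7.68, 8.18 and 7.83 in WT, with C the highest. Its difference with all arrays was 1.04 ± 0.21 (SE, n = 3 per group, limma adjusted p = 0.139). Of 47 UDP-glycosyltransferases, UGT85A5 rose and UGT72E2 and UGT76C2, which glucosylates cytokinins, fell without tfl1-1 C, where 3.28% of all probe sets were called. In A and B, 37 of the 47 lay below 0 (median -0.14), and with all arrays 29 did (median -0.07), while the median in C was 0.10.

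Without tfl1-1 C, single genes of DNA replication and chromatin moved in both directions. PRL, the MCM7 subunit of the replicative helicase, read 5.81, 5.28 and 7.33 in tfl1-1 and 6.54, 6.87 and 7.56 in WT, a fall of 1.44 (limma adjusted p = 0.0147). All letters agreed in sign for PRL, with -1.16 in A and B, -0.24 in C and -0.74 at 16 °C. HTB1, a histone H2B, fell by 0.86, with 0.07 in C. PSF2, a subunit of the GINS complex that also acts at replication forks, rose by 0.84 (limma adjusted p = 0.00914), with -0.29 in C. Of the 6 histone genes measured, HIS1-3 rose and HTB1 fell, where 1.84% of all probe sets rose and 1.44% fell. The mitosis genes AUR1, AUR2 and KINESIN-12B did not pass, at -0.82, -0.11 and -0.70. SPCH, the factor that starts the stomatal lineage, read 4.94, 4.85 and 5.66 in tfl1-1 and 5.55, 6.21 and 5.97 in WT. It fell by 1.02 (limma adjusted p = 0.0326), with -0.31 in C.

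Further falls without tfl1-1 C were GSA1, an enzyme of the chlorophyll precursor pathway, and LHCB4.3, an antenna protein of photosystem II. GSA1 was lower on all 3 tfl1-1 arrays, at 8.95, 8.84 and 9.06 against 9.52, 9.57 and 9.31. Its difference was -0.57 without tfl1-1 C and -0.52 with all arrays (limma adjusted p = 0.0454 and 0.263). LHCB4.3 fell by 1.32 (adjusted p = 0.0157), with -0.40 in C, whereas PGRL1B rose and neither LHCB4.2 nor RCA passed. The serine carboxypeptidase-like gene scpl35 was lower on every tfl1-1 array as well. It read 6.71, 6.98 and 7.09 against 7.89, 8.92 and 8.27, with -1.51 without tfl1-1 C and -1.18 in C. In the fit without tfl1-1 C, KINESIN-13A, a microtubule motor, fell by 0.41. CHIL, a chalcone isomerase-like protein of flavonoid synthesis, fell by 1.28 (adjusted p = 0.0178) but stood at 0.57 in C.

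Of the lists of named pathways, 66 of 251 genes were measured and named here. None of the 66 passed with all arrays, where 0.0352% of all probe sets did. Of the 6 flavonoid and anthocyanin genes, none passed with all arrays, in A and B or without tfl1-1 C, and all 6 lay below 0 with all arrays (median -0.49). The median was -0.42 in C, where UGT78D1 and UGT78D2 lay above 0, and -0.74 at 16 °C. Of all probe sets, 0.849% were called in A and B and 3.28% without tfl1-1 C, so a lack of calls among 6 genes decides nothing. DFR, an enzyme of anthocyanin synthesis, read 3.39, 3.30 and 5.11 in tfl1-1 and 3.64, 5.69 and 6.63 in WT, so tfl1-1 was lower within each letter while the groups overlapped. With all arrays its difference was -1.39 ± 0.69 (SE, limma adjusted p = 0.617), and without tfl1-1 C it was -1.98 (adjusted p = 0.148). Of the 3 glucosinolate genes, AT2G31790 alone passed without tfl1-1 C (-0.73, limma adjusted p = 0.0114), where 1.44% of all probe sets fell. BCAT4 stood at -0.93 with all arrays.

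Among genes of flowering time, GI, a clock-associated protein that promotes flowering in long days, read 7.91, 8.27 and 7.89 in tfl1-1 and 7.37, 7.45 and 6.64 in WT. All 3 tfl1-1 arrays were higher, C included. With all arrays the difference was 0.87 ± 0.21 (SE, n = 3 per group) and did not pass (limma adjusted p = 0.230). Without tfl1-1 C it was 0.94 and passed (limma adjusted p = 0.0445), while in A and B it was 0.68 (adjusted p = 0.133). FD, the partner of TFL1 and FT, lay at 3.47 to 3.71 on all 6 arrays, near the Bacillus controls, and AGL19, AGL24 and AGL42 stood between 0.07 and 0.09 with all arrays, AGL24 at -0.18 without tfl1-1 C. SMZ, a repressor of flowering of the AP2 type, read 6.47, 5.89 and 6.54 in tfl1-1 and 7.19, 7.39 and 6.59 in WT, a difference of -0.75 with all arrays (adjusted p = 0.571) and -0.87 without tfl1-1 C (adjusted p = 0.224). ATC, a close relative of TFL1, read 4.09, 4.87 and 6.18 against 5.23, 4.60 and 4.64, with -0.43 in A and B and 1.54 in C. Of 40 AGAMOUS-like genes none passed in these fits. Of all probe sets, 0.0352% passed with all arrays, 0.849% in A and B and 3.28% without tfl1-1 C. The mean of the 40 genes was 3.69 to 3.79 on the 6 arrays, near the Bacillus controls. The lack of calls among them therefore decides nothing.

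Further lists held few calls, and their values are from all arrays unless stated. The heat-shock genes Hop3 (0.75) and AT5G48570 (0.60) were higher mainly in C, at 1.51 and 1.39. The cold-response genes LTI30, COR15A, COR15B and COR47 lay between -0.09 and 0.51. The root marker EXPA7 stood at 0.05 and PYK10 at 0.07, but PYK10 was at -0.32 in A and B and -0.27 without tfl1-1 C. The meristem gene CLV3 stood at 0.16, near the Bacillus level. Genes of the mitochondrial genome were above 0 in 13 of 16 (median 0.46; 12 of 16 and 0.36 in A and B, 0.44 in C), with cox2, a subunit of cytochrome oxidase, at 1.22. Of these 16, matR alone passed in A and B (0.90, limma adjusted p = 0.0455), where 0.497% of all probe sets rose. Genes of the plastid genome were above 0 in 56 of 69 (median 0.10), but in 38 of 69 in A and B (median 0.03), against a median of 0.25 in C. At 16 °C the medians of both were below 0, at -0.38 and -0.26. The ribosomal and 3′ controls given above differed between these arrays, and their part in these values was not tested.

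The comparison at 16 °C, with other arrays of the same genotypes, had no call over all probe sets, with 1717 (7.55%) at an unadjusted p under 0.05 in limma. Its C arrays had raised Bacillus controls too, at 4.97 in tfl1-1 and 5.72 in WT, against 3.14 to 3.21 in A and B. The 3′ control exceeded the 5′ control by 0.82 and 1.19 in C, against 0.40 to 0.73. All 16 °C values include C, and the part of these controls was not tested. Of the 745 probe sets called at 23 °C without tfl1-1 C, 650 (87.2%) had the same sign at 16 °C, against 66.3% of all probe sets. For the 193 called in A and B the numbers were 149 (77.2%) and 64.7%. The probe sets that rose at 23 °C had a median of 0.27 at 16 °C, and those that fell had -0.24. Since they were selected on their size at 23 °C, these medians are not compared with those at 23 °C. Of the 745, 109 had the same sign with an unadjusted p under 0.05 at 16 °C in limma. The like share over all probe sets was not computed, and the 7.55% above counts either sign, so this count is not read further. The difference between the temperatures itself passed in no probe set with all arrays (821 at an unadjusted p under 0.05 in limma, 3.61%) and in 13 without tfl1-1 C (0.0572%).

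**Figure D5:**
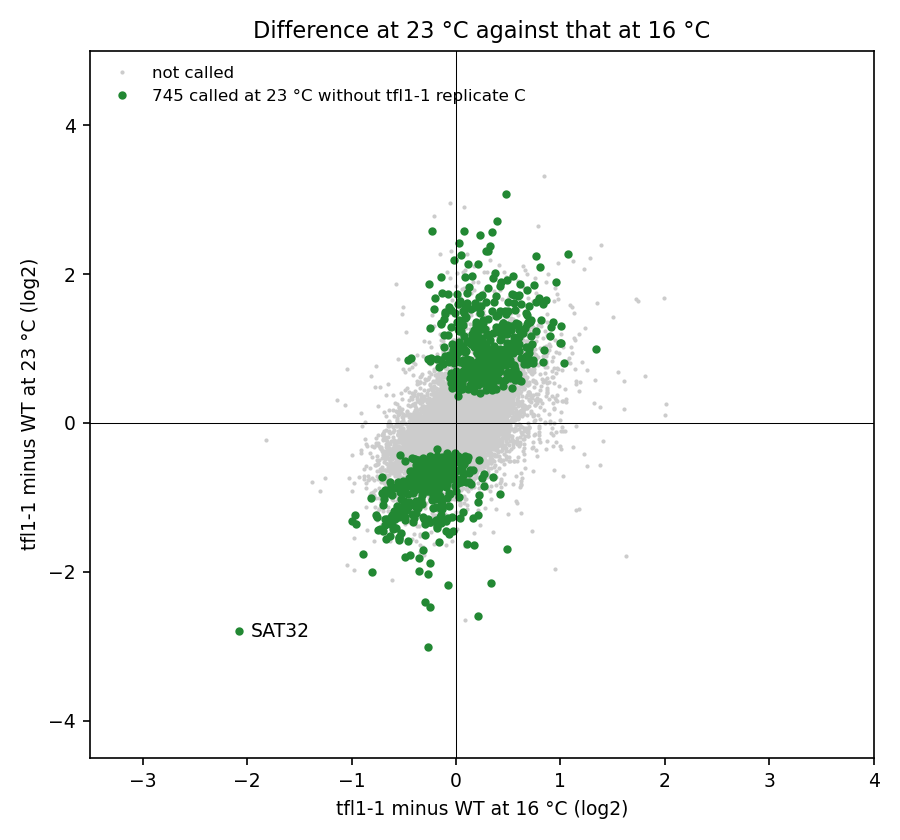
Difference tfl1-1 minus WT in log2 units at 16 °C (horizontal, all arrays) against that at 23 °C without tfl1-1 replicate C (vertical); green points are the 745 called at 23 °C. Most green points have the same sign at both temperatures, and SAT32 at -2.08 and -2.79 stands apart.

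By locus code, the calls without tfl1-1 C were spread over the chromosomes. Of 13415 probe sets with such a code, 2.61% were called, from 2.14% on chromosome 4 to 3.31% on chromosome 2, with 2.49% on chromosome 5, where TFL1 lies. On chromosome 5, 1 of the 53 probe sets whose codes share the first digits of TFL1 (AT5G03) was called. In the block before it 2 of 55 were called (3.64%), and in the block that follows none of 58. Of the 4 genes called with all arrays, 3 had codes of chromosome 1 and 1 of chromosome 4.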

How the data were processed

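Total RNA of whole seedlings, extracted independently for each sample per the labels, was labelled with biotin and hybridised to Affymetrix arrays. The authors deposited 1 log2 signal for each probe set and array, computed by RMA (robust multi-array averaging) per the submitters' processing notes. RMA forces the arrays to a shared distribution, so a change of most genes at once would not be seen. The signals ranged from 2.33 to 14.08. Array signals have no read depth, and the number of arrays limits the precision. No sequence is shown because the tables used here hold none.

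Of 22810 probe sets, 64 controls were left out, and no other filter was applied. Genes were named through the platform annotation and updated by gene number through RefSeq's TAIR10.1 gene table (13436 matched). One model with the 6 groups was fitted to all 18 arrays with limma 3.58.1 (lmFit, eBayes) in R 4.3.3, and p-values were adjusted by Benjamini-Hochberg over all 22746 probe sets. A call is an adjusted p under 0.05. The labels state biological replicates, without saying whether they were separate sowings, so p-values measure the spread between the samples of a fit. Except where only the 6 compared arrays were fitted, limma pooled that spread over all 6 groups. The SEs come from the same pooled spread, not from the compared arrays alone. Replicate letters were taken to pair the samples, because deviations from the group means correlated within each letter (0.62 for A, 0.19 for B and 0.60 for C), although tfl1-1 B correlated slightly more with WT A (0.24). The main fit uses no pairing, and a further fit had the letter as a block. The script was tested on simulated data.

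Named were called genes without overlap of arrays (up to 15 each way), the first 8 each way in replicates A and B, and up to 6 called members of each list or family, or the 2 with the largest difference. Genes with a symbol called without tfl1-1 C, and genes called with the block, were added after their values were seen. The comparison, gene lists and families were chosen with earlier results of these data known. Alternatives were fits of A and B, blocks, equal medians, quantile normalization, a filter on dim probe sets, array weights, an intensity trend and leaving out each array.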

Additional observations from a re-analysis of the deposited data

How the results depend on the processing

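The count of calls was the result most open to the processing. Against 8 (5 higher and 3 lower) with all arrays, there were 193 (113 and 80) in replicates A and B, 29 (13 and 16) with the replicate block and 32 (14 and 18) with replicate C against A and B as a block. Array weights, which set tfl1-1 C at 0.219, gave 1593 (781 and 812), and the 6 arrays alone gave 0 (0 and 0). Equal array medians gave 11, with 6 lower, quantile normalization 9, the dim filter 6 and the intensity trend 6. Leaving out 1 array at a time gave 0 to 745 calls, 0 to 418 higher and 0 to 327 lower.

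Over 144 genes and 2150 gene-by-setting combinations, 1855 kept direction and side of the threshold, 221 passed it newly, 38 lost it and 36 changed sign. The sign changes concerned 17 genes, none of them called with all arrays. In A and B alone LEA4-5 stood at 0.0054, PDF2.5 at -0.11, PYK10 at -0.32 and Prx37 at -0.0903. With array weights NAC014 stood at 0.055, PDF2.5 at -0.15, PYK10 at -0.27, Prx37 at -0.18 and petL at -0.054. Leaving out 1 array gave ranges of -0.18 to 0.43 for AGL24, -1.38 to 0.0275 for ARPN, -0.13 to 0.0191 for ATHSP22.0, -0.88 to 0.0156 for AUR1, -0.0069 to 0.15 for EXPA7, -0.18 to 0.36 for GID1B, -0.78 to 0.10 for ICL, -0.43 to 0.16 for LEA18, -0.31 to 0.11 for LEA4-5, -0.17 to 0.0203 for NAC014, -0.0474 to 1.28 for PDF1.2b, -0.17 to 1.27 for PDF2.5, -0.27 to 0.33 for PYK10, -0.10 to 0.23 for Prx37, -0.10 to 0.0288 for RCA, -1.27 to 0.0602 for UGT72E2 and -0.52 to 1.48 for petL. The cause of these changes was not tested. The replicate block lost none of the 8 calls. It could change no sign, because every group holds each letter once and the differences stay the same. The block of replicate C against A and B likewise keeps every difference. So do the fit of the compared arrays alone, the dim filter and the intensity trend. The 1855 combinations therefore include settings in which direction was not tested. The 36 sign changes arose in A and B alone, with array weights or on leaving out 1 array.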
